A study of Homo sapiens with 34 samples.

Results

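The transcription factor NRF2 and the proteins that hold it in check or pair with it were followed as 8 genes, namely NFE2L2 (NRF2), NFE2L1 (NRF1), KEAP1, CUL3, BACH1, MAFF, MAFG and MAFK. They were chosen by gene symbol, and each was found at 1 locus with no other gene name, so that 8 of the 28690 loci in the expression tables were described. The cells were U2OS, a human osteosarcoma line, carrying a stable Bmal1:Luc reporter and synchronized with dexamethasone in every condition. They received either 5 mM 6-aminonicotinamide (6AN), an inhibitor of the pentose phosphate pathway, or the solvent DMSO as control. RNA was sequenced at 12 time points, labelled 0 to 44 hr in steps of 4 hr, with 1 library per time point and condition, which gave 24 libraries. The labels do not state how long 6AN or dexamethasone had been present at 0 hr, so 0 hr need not be the start of treatment. Chromatin immunoprecipitation (ChIP-seq) for the clock activators BMAL1 and CLOCK, for the histone marks H3K9ac and H3K4me3 and for input DNA was done after 24 hr, with 1 library per antibody and condition. All samples came from 1 reporter line.

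In unstressed cells NRF2 is bound by KEAP1, the redox sensor that presents it to the CUL3 ubiquitin ligase, and is degraded. Oxidants and electrophiles modify KEAP1, and NRF2 then accumulates, enters the nucleus and pairs with a small MAF protein (MAFF, MAFG or MAFK) on antioxidant response elements of genes for glutathione, thioredoxin, NADPH and iron metabolism. BACH1 pairs with the same small MAFs and represses many of these genes, and NRF1 is a relative anchored in the endoplasmic reticulum that drives proteasome genes. NRF2 itself is controlled largely through protein turnover, whereas the data described here are RNA levels.

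Transcript levels were given as FPKM, mapped fragments scaled by transcript length and by the depth of the library, so that genes of different length can be compared. A locus was taken as expressed when its mean over the 24 libraries was at least 1 FPKM, which left 13979 loci and all 8 genes. Relative depth, read from the step between low values, ran from 0.581 to 1.31 times the median library in control and from 0.696 to 1.55 times in 6AN. Over the expressed loci, libraries of different conditions had a Pearson's r between 0.848 and 0.896, against 0.877 to 0.918 within control and 0.870 to 0.913 within 6AN. The osteoblast markers RUNX2, COL1A1 and SPARC were present, and SP7, COL1A2 and IBSP were at or near 0. Of 9 such markers, 6 had a mean of at least 1 FPKM in each condition. The summed FPKM of the 9 was lower in 6AN (140.4 to 312.7) than in control (427.5 to 581.3). Mean FPKM in control and 6AN was 323.2 and 128.6 for SPARC, 128.1 and 33.9 for COL1A1, and 6.41 and 3.73 for ALPL. RUNX2 (13.99 and 13.9) and BGLAP (23.1 and 22.8, at a locus shared with PMF1) hardly differed. SPP1 was higher in 6AN (2.07 and 4.0). The summed FPKM of 9 markers of blood, epithelial, endothelial, liver and muscle cells was 4.48 to 7.55 in control and 5.58 to 11.5 in 6AN, with CD68 as the main contributor. The part of these shifts in the results below was not tested. In bulk RNA, fewer cells of a type and less RNA per cell cannot be told apart.

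The 2 tables of FPKM were normalized separately, so 6AN and control were compared by description, without a test. At each time point the log2 ratio of (6AN FPKM + 1) to (control FPKM + 1) was taken, and its mean and SD over the 12 time points are given. The median of this mean ratio over the 13979 expressed loci was -0.04. The summed FPKM of a library ran from 975321 to 1089300 in control and from 1080810 to 1281610 in 6AN. Small ratios can therefore depend on how libraries are scaled, and scaling by this sum was not tested.

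All 3 small MAF transcripts were higher in 6AN at every time point, and for each of them the lowest 6AN library lay above the highest control library. MAFK showed the largest ratio of the 8 genes, at 1.17 on the log2 scale. BACH1 and KEAP1 were also higher at all 12 time points, with overlapping or touching ranges, NFE2L2 was higher at 11, NFE2L1 at 5 and CUL3 at 1. Of all expressed loci, 13% were higher in 6AN at all 12 time points, against 5 of the 8 genes, and 20.4% were lower at all 12, against none of the 8. Ranges that did not overlap, with 6AN higher, were found at 5.89% of expressed loci and at 3 of the 8 genes.

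**Figure D1:**
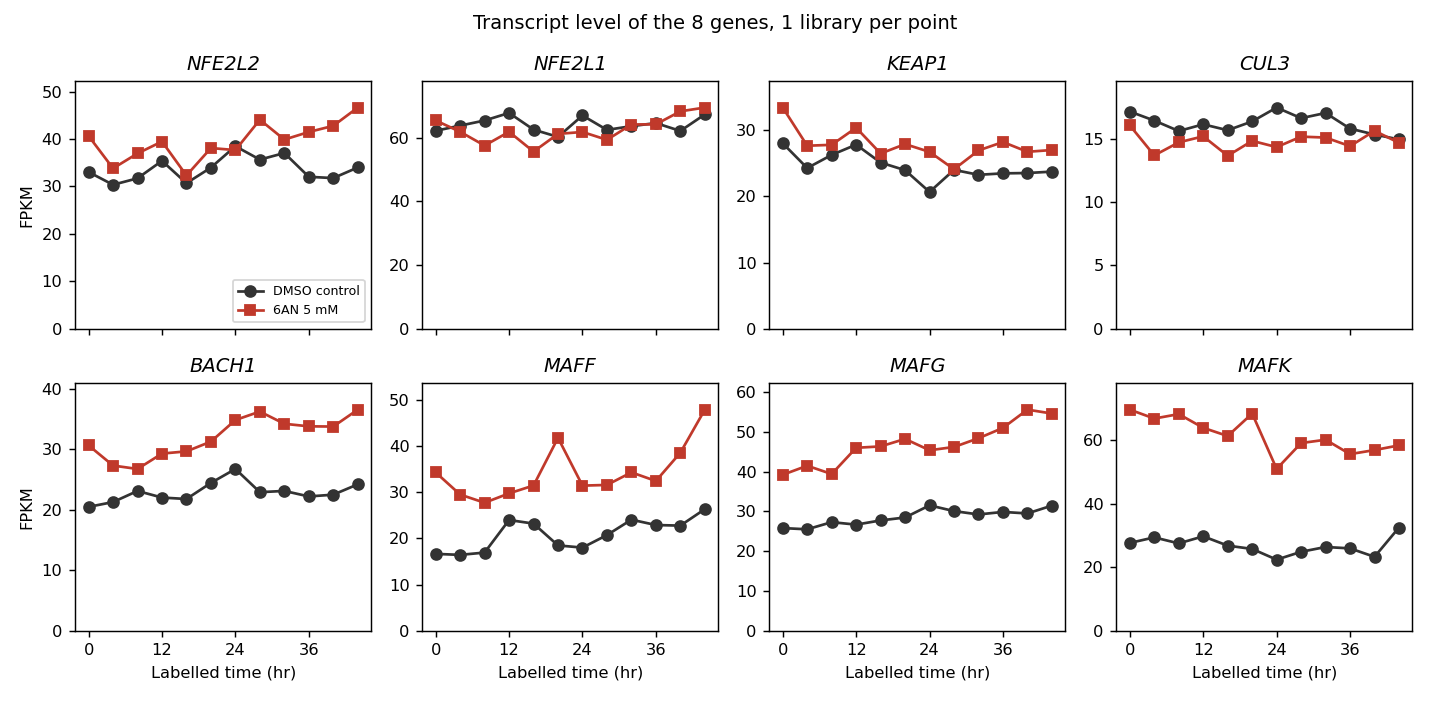
FPKM (y axis, from 0) of each of the 8 genes against the labelled time in hr (x axis), with 1 library per point, DMSO control in black circles and 6AN in red squares. The red points lie above all black points for MAFF, MAFG and MAFK, touch them for BACH1 at 26.8 FPKM, and mix with them for NFE2L1.

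NFE2L2, which encodes NRF2, was measured at 30.3 FPKM in its lowest control library (4 hr), with a median of 33.5 and a highest value of 38.5 (24 hr). In 6AN its lowest, median and highest values were 32.3 (16 hr), 39.7 and 46.6 FPKM (44 hr). The ranges overlapped, and the ratio was smallest at 24 hr (-0.03) and largest at 44 hr (0.44), so that the gap was widest in the last 3 time points (0.36, 0.42 and 0.44). The mean log2 ratio was 0.22 ± 0.15 (SD, n = 12), at the 78.3 percentile of expressed loci. The transcript of NRF2 was thus only modestly higher, and less so than those of its small MAF partners.

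NFE2L1, the gene of NRF1, was the most abundant of the 8 in both conditions. Its control values lay between 60.2 (20 hr) and 67.8 FPKM (12 hr) with a median of 63.7, and its 6AN values between 55.6 (16 hr) and 69.4 FPKM (44 hr) with a median of 61.8. These ranges overlapped almost fully, and the mean log2 ratio was -0.04 ± 0.10 (SD, n = 12), equal to the median of all expressed loci. Within each library the ratio of NFE2L1 to NFE2L2 was 1.91 ± 0.137 in control and 1.59 ± 0.117 in 6AN (SD, n = 12), and it was lower in 6AN at all 12 time points.

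KEAP1, the adaptor that senses oxidants, had lowest, median and highest values of 20.7 (24 hr), 24.0 and 28.01 FPKM (0 hr) in control. In 6AN these were 24.1 (28 hr), 27.3 and 33.4 FPKM (0 hr). KEAP1 was higher in 6AN at each hour, but at 28 hr only by 0.01 on the log2 scale, and the ranges overlapped. Its mean log2 ratio was 0.17 ± 0.09 (SD, n = 12). CUL3, the scaffold of the ligase, was the least abundant of the 8 genes and the one whose ratio was furthest below 0. It lay between 14.9 (44 hr) and 17.4 FPKM (24 hr) in control, with a median of 16.2, and between 13.6 (16 hr) and 16.04 FPKM (0 hr) in 6AN, with a median of 14.8. The mean log2 ratio of CUL3 was -0.12 ± 0.08 (SD, n = 12), with 6AN above control only at 40 hr. The sensor and its scaffold thus differed in opposite directions by small amounts. The ratio of KEAP1 to CUL3 within a library was 1.52 ± 0.148 in control and 1.88 ± 0.138 in 6AN (SD, n = 12), higher in 6AN at all 12 time points with overlapping ranges.

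BACH1, the repressor that competes with NRF2 for small MAF partners, had lowest, median and highest values of 20.5 (0 hr), 22.7 and 26.8 FPKM (24 hr) in control. In 6AN they were 26.8 (8 hr), 32.5 and 36.6 FPKM (44 hr). Apart from the highest control library, every control value lay below every 6AN value. The log2 ratio ran from 0.20 (8 hr) to 0.64 (28 hr), with a mean of 0.46 ± 0.13 (SD, n = 12) at the 91.1 percentile. The ratio of BACH1 to NFE2L2 within a library was 0.682 ± 0.0416 in control and 0.814 ± 0.063 in 6AN (SD, n = 12), higher in 6AN at 11 of 12 time points with overlapping ranges. The region before BACH1 is shown because BMAL1 and CLOCK peaks, both in 6AN, reached into it. Upstream sequence was taken from RefSeq on GRCh38.p14, the build hg38 of the files, and was ended at the earlier of the RefSeq start and the start of the locus in the expression tables. The capitals mark the bases inside the merged peak.
BACH1, chr21:29298672-29298794, plus strand: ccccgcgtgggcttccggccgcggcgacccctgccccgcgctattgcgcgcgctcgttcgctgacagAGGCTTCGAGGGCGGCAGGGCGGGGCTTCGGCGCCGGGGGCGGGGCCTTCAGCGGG

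The small MAFs, which lack a transactivation domain and act as obligate partners of NRF2, NRF1 and BACH1, were the members that differed most. MAFF had lowest, median and highest values of 16.4 (4 hr), 21.8 and 26.4 FPKM (44 hr) in control and of 27.7 (8 hr), 32.02 and 47.9 FPKM (44 hr) in 6AN. MAFF was also the most variable member, with coefficients of variation of 16.5% and 17.0%, and its log2 ratio ranged from 0.30 at 12 hr to 1.13 at 20 hr around a mean of 0.69 ± 0.24 (SD, n = 12). Control libraries were low at 0 to 8 hr and at 20 to 24 hr, whereas the 6AN library at 20 hr was the second highest of its table. MAFG had lowest, median and highest values of 25.5 (4 hr), 28.9 and 31.5 FPKM (24 hr) in control and of 39.2 (0 hr), 46.3 and 55.6 FPKM (40 hr) in 6AN. Its mean ratio equalled that of MAFF but was steadier, at 0.69 ± 0.11 (SD, n = 12), with a range from 0.51 to 0.89. MAFK had lowest, median and highest values of 22.4 (24 hr), 26.6 and 32.5 FPKM (44 hr) in control and of 51.0 (24 hr), 60.8 and 69.7 FPKM (0 hr) in 6AN. Its mean log2 ratio of 1.17 ± 0.14 (SD, n = 12) stood at the 99.0 percentile of expressed loci, and the mean FPKM was 2.29 times that of control.

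**Figure D2:**
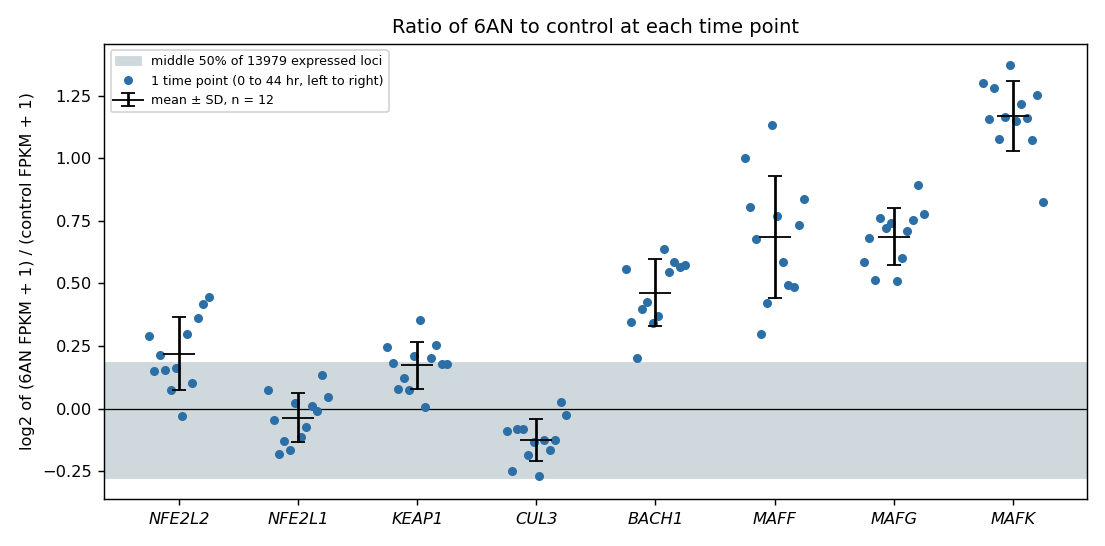
Log2 ratio of 6AN to control FPKM, each with 1 added (y axis), for the 8 genes (x axis), with a blue point per time point from 0 to 44 hr, the mean ± SD over 12 time points in black, and the middle 50% of the mean ratios of 13979 expressed loci as a grey band. The 3 small MAFs and BACH1 lie above the band at every time point, and NFE2L1 and CUL3 lie inside it.

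The upstream regions of MAFG and MAFF are shown because both hold the E-box CACGTG, the letters bound by BMAL1 and CLOCK, and because a BMAL1 peak found in 6AN, at chr17:81927729-81927929, covers that of MAFG. The 3 motifs searched on both strands in the 250 bases before each RefSeq start were the E-box CACGTG, the core TGACNNNGC of the antioxidant response element, and TGAGTCA, bound by AP-1 and contained in the longer element that MAF dimers recognize. These letters were found in 6.34%, 10.9% and 4.2% of 35116 such windows of all genes. The capitals mark the matches.
MAFG, chr17:81927736-81927985, minus strand: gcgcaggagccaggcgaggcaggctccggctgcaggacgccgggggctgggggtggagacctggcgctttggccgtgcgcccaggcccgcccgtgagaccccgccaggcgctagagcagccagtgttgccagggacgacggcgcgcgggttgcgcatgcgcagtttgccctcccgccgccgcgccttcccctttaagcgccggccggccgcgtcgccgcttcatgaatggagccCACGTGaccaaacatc
MAFF, chr22:38201744-38201931, plus strand: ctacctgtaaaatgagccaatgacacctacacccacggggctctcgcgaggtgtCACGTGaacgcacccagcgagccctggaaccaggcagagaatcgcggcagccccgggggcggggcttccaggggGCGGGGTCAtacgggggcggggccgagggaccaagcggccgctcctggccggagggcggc

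In MAFG the E-box began 16 bases before the RefSeq start. The MAFF region held an E-box and, further down, a match to the antioxidant response element core on the opposite strand, and a second MAFF start further downstream had another E-box within its 250 bases. A downstream start of KEAP1 had 2 matches to the core, and the RefSeq window of BACH1 had 1 match to TGAGTCA at chr21:29298874-29298880, inside the merged peak. No match to any of the 3 motifs was found in the 250-base windows of NFE2L2, NFE2L1 and CUL3. RefSeq windows, 14 in all, were matched for 7 of the 8 genes, and MAFK had none. Most of the 7 genes had more than 1 window, whereas the shares above are per window.

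Summed over the 3 small MAFs, control libraries held 76.4 ± 5.63 FPKM and 6AN libraries 142.7 ± 9.62 FPKM (SD, n = 12), with ranges of 70.2 to 90.4 and 127.8 to 160.9. Because the sum was taken from genes that were all higher, the composition was examined as well. MAFK made up 35.2% ± 3.29 of the sum in control and 43.3% ± 4.45 in 6AN (SD, n = 12), higher at all 12 time points, whereas the share of MAFG was lower at all 12 (37.6% ± 2.76 and 32.8% ± 2.98). The small MAF sum divided by the summed FPKM of their partners NFE2L2, NFE2L1 and BACH1, a quantity in which any scaling of a library cancels, was 0.633 ± 0.044 in control and 1.07 ± 0.0788 in 6AN (SD, n = 12). Its highest control value was 0.720 and its lowest 6AN value 0.952, so the ranges were apart. The numerator is the same sum of genes that were all higher, so this separation is not independent of that result. By contrast, the ratio of NFE2L2 to its inhibitor KEAP1 was 1.39 ± 0.195 in control and 1.43 ± 0.201 in 6AN (SD, n = 12), and it was higher in 6AN at 7 of 12 time points.

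The order of the mean levels differed between the conditions. In control it was NFE2L1, NFE2L2, MAFG, MAFK, KEAP1, BACH1, MAFF and CUL3, and of the neighbours in that order only NFE2L1 and NFE2L2 had ranges that did not overlap. In 6AN it was NFE2L1, MAFK, MAFG, NFE2L2, MAFF, BACH1, KEAP1 and CUL3, and only KEAP1 and CUL3 at the lower end were apart. MAFK thus stood behind NFE2L2 and MAFG in control and ahead of both in 6AN, next to NFE2L1, from which it differed by 0.901 FPKM on average with an SD of 7.94 over the 12 time points.

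Whether the 8 genes drifted over the time course was asked within each table with a limma fit of log2(FPKM + 1) on time together with a 24 hr cosine and sine. Adjusted p-values below are from limma with Benjamini-Hochberg adjustment over 13979 loci, and 0.05 was the highest value at which a slope was called. In control, 2.63% of expressed loci rose and 2.96% fell, and 1 of the 8 genes, MAFG, rose. In 6AN, 11% rose and 13.2% fell, and 2 of the 8 genes rose (BACH1 and MAFG) while MAFK fell. With 8 genes, the 11% that rose among all loci corresponds to about 1 gene, so the count of risen members was close to the background.

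MAFG rose by 0.16 ± 0.03 log2 units per 24 hr in control (slope ± SE, limma adjusted p = 0.0142) and by 0.21 ± 0.03 in 6AN (limma adjusted p = 0.000685). In both conditions it was higher in the second cycle at all 6 hours that could be paired across cycles. Without the 0 hr libraries the control slope was 0.14 with a limma adjusted p of 0.0561. BACH1 rose in 6AN by 0.23 ± 0.04 per 24 hr (limma adjusted p = 0.00259), from 29.2 FPKM on average in the first 6 time points to 34.9 in the last 6, and the slope in control was 0.09 ± 0.05 (limma adjusted p = 0.369). MAFK fell in 6AN by 0.18 ± 0.06 log2 units per 24 hr (limma adjusted p = 0.0477), from 66.4 to 56.9 FPKM, and its control slope was -0.06 ± 0.09 (limma adjusted p = 0.755). This MAFK call was close to the threshold and was kept in 2 of the 12 fits that each left out 1 time point, where its adjusted p ran from 0.0111 to 0.138.

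**Figure D3:**
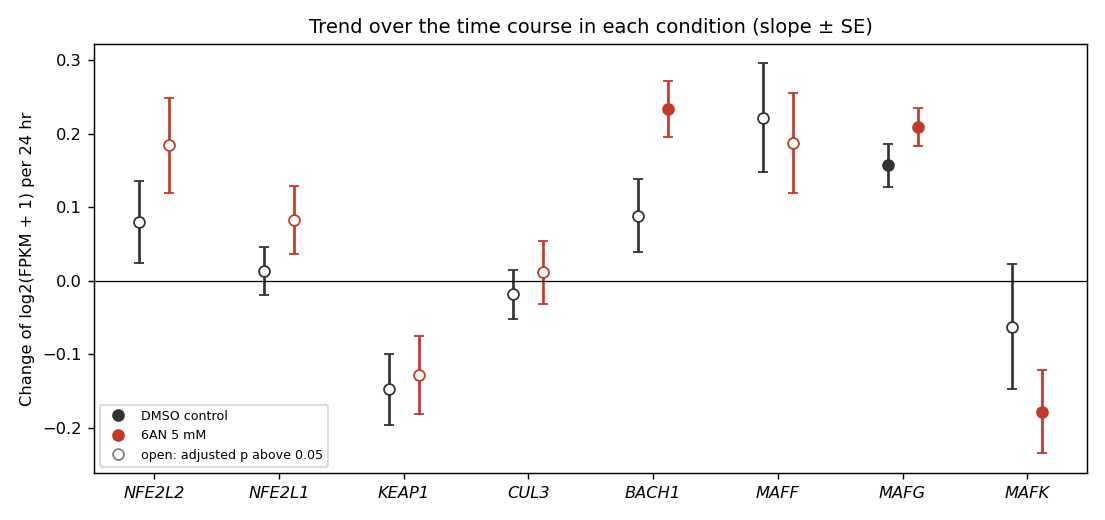
Slope of log2(FPKM + 1) per 24 hr (y axis) with its SE for the 8 genes (x axis), DMSO control in black and 6AN in red, filled where the slope was called by limma (threshold 0.05). Filled points are MAFG in both conditions, BACH1 in 6AN above 0 and MAFK in 6AN below 0.

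The other slopes did not pass. The largest were those of MAFF, at 0.22 ± 0.07 per 24 hr in control (limma adjusted p = 0.125) and 0.19 ± 0.07 in 6AN (limma adjusted p = 0.0736), and of NFE2L2 in 6AN, at 0.18 ± 0.06 (limma adjusted p = 0.0666). KEAP1 had slopes of -0.15 ± 0.05 in control and -0.13 ± 0.05 in 6AN (limma adjusted p = 0.125 and 0.112). NFE2L1 and CUL3 were the flattest, with slopes between -0.02 and 0.08 and adjusted p-values of at least 0.230. The difference in slope between the conditions was not tested.

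No 24 hr rhythm was called for any of the 8 genes in either condition, and 0.00715% of expressed loci (1 locus) passed in control and 0% in 6AN by limma at the same threshold. At an unadjusted p under 0.05 there were 949 loci in control and 1093 in 6AN, and among the 8 genes MAFF (p = 0.015) and MAFG (p = 0.0223) in 6AN. A rank test against rising and falling shapes of a 24 hr period called 0 loci in both conditions after adjustment, with 705 and 584 at an unadjusted p under 0.05. The fitted amplitudes of the 8 genes lay between 0.01 and 0.19 log2 units, the largest being MAFF in 6AN at 0.19 ± 0.05 (SE). With simulated 24 hr rhythms of amplitude 0.5, the same fit called 152 of 200 in control and 166 of 200 in 6AN. Rhythms of the size fitted here were thus below what was simulated. Fit, rank test and simulation all used a 24 hr period, so the shares called do not carry over to longer rhythms. The study reports longer periods under the inhibitor, and it called rhythmic transcripts in both conditions with its own methods. The low counts here thus do not show that rhythms were absent.

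Across the 24 libraries, after the mean of each table was removed, BACH1 and MAFG were the members most alike (Pearson's r = 0.71, with 0.76 within control and 0.70 within 6AN), followed by NFE2L2 and BACH1 (0.71, with 0.64 and 0.74). MAFK and KEAP1 ran against this pair, with r between BACH1 and MAFK of -0.57 and between BACH1 and KEAP1 of -0.54. These are descriptions over libraries that share their time course, taken from 28 pairs. Of all expressed loci, those most like NFE2L2 were TMEM68, SPG21 and AP3M2 (r = 0.79, 0.77 and 0.75 over the 24 libraries). Those most like KEAP1 were TOMM40, CLU and TPGS2 (0.88, 0.86 and 0.86), and those most like BACH1 were HDGFRP3, TMEM30A and RAB3GAP1 (0.85, 0.84 and 0.84). None of the 9 is one of the 8 genes.

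The relatives of the 8 genes were mostly low in these cells. NFE2 and NRL were under 1 FPKM. MAFA, a large MAF, was higher in 6AN at every time point without overlap, at 6.19 ± 0.416 FPKM in control and 10.9 ± 1.51 in 6AN (SD, n = 12; mean log2 ratio 0.72). BACH2, MAF and NFE2L3 had mean log2 ratios of 0.22, -0.13 and 0.09 with overlapping ranges. MAF was the most abundant of them at 19.8 ± 4.1 FPKM in control, and it rose over time in both conditions, by 0.40 ± 0.08 per 24 hr in control and 0.28 ± 0.06 in 6AN (limma adjusted p = 0.0171 and 0.0132).

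Genes that turn NRF2 and NRF1 over or act with them as co-activators were mixed. All 18 were expressed, 5 were higher and 3 lower in 6AN at all 12 time points, against 13% and 20.4% of all expressed loci, and the list's median log2 ratio was 0.01. Ranges were apart with 6AN higher for 4 and lower for 2, against 5.89% and 10.3% of all expressed loci. CREBBP, an acetyltransferase that binds NRF2, was the most raised, at 18.1 ± 0.663 FPKM in control and 28.3 ± 2.65 in 6AN. SQSTM1, which encodes the KEAP1-binding autophagy receptor p62, was at 200.4 ± 18.8 and 290 ± 27.6 FPKM. NGLY1, the enzyme that removes glycans from NRF1, had a mean log2 ratio of 0.37. RBX1, the RING subunit of CUL3 ligases, was lower without overlap, at 75.7 ± 3.79 and 57.2 ± 5.19 FPKM. NEDD8, the modifier that activates cullins, had a ratio of -0.41 at a locus that also holds MDP1, and SKP1, the adaptor of the related CUL1 ligases, a ratio of -0.42.

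**Figure D4:**
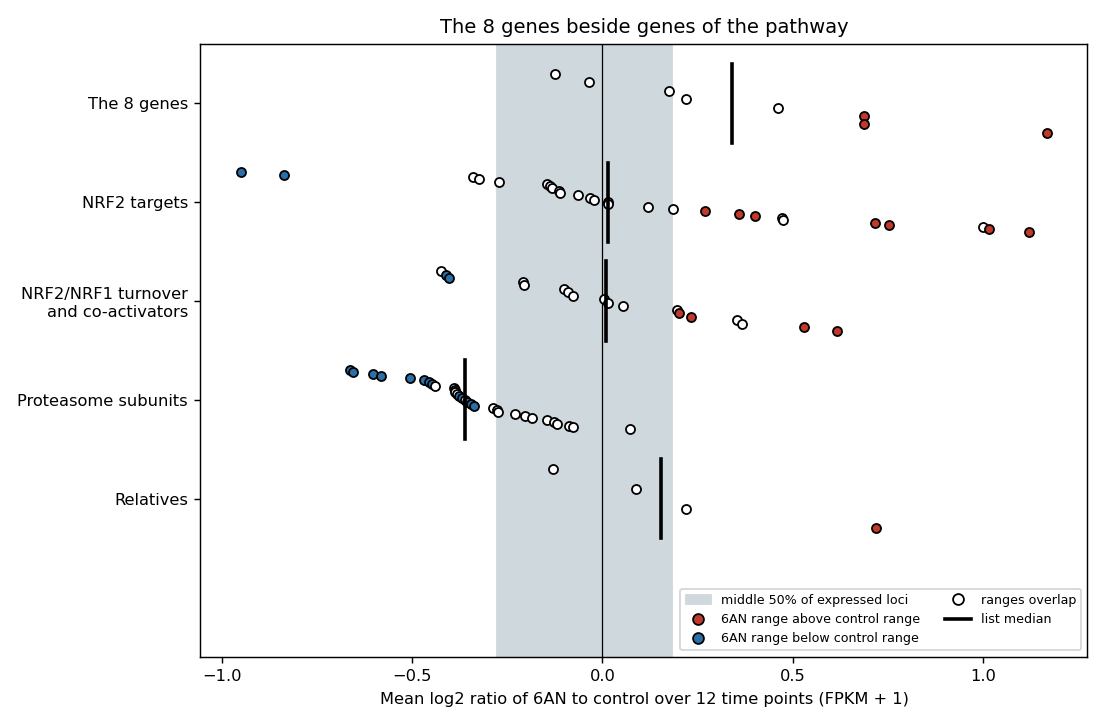
Mean log2 ratio of 6AN to control over 12 time points (x axis), 1 point per expressed gene, for the 8 genes and 4 lists (y axis), in red or blue where the 6AN range lay above or below the control range and white where the ranges overlapped. Black bars are list medians (0.34 for the 8 genes, 0.02 for targets, 0.01 for turnover genes, -0.36 for proteasome subunits and 0.16 for relatives), and the grey band holds the middle 50% of expressed loci.

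Genes commonly described as NRF2 targets did not move in 1 direction. Of 30, 27 were expressed, 10 were higher and 5 lower in 6AN at all 12 time points, and the median log2 ratio was 0.02, against -0.04 for all expressed loci. The share higher at all time points was thus above the 13% of all loci, and that lower was near the 20.4%. Ranges were apart with 6AN higher for 7 of the 27 and with 6AN lower for 2 (NQO1 and PIR). Of all expressed loci, 5.89% and 10.3% had such ranges. OSGIN1, an oxidative stress-induced growth inhibitor, was at 11.4 ± 1.62 FPKM in control and 26.2 ± 5.42 in 6AN. SRXN1, the sulfiredoxin that repairs overoxidized peroxiredoxins, was at 25.8 ± 2.75 and 53.8 ± 10.8 FPKM. These 2 genes did not overlap between conditions, and neither did GCLC, the catalytic subunit of the first enzyme of glutathione synthesis, at 19.3 ± 1.81 and 33.2 ± 2.62 FPKM. SLC7A11, the cystine transporter, had a mean log2 ratio of 1.0 with overlapping ranges. In the other direction, NQO1, a quinone reductase often read as a marker of NRF2 activity, was at 40.9 ± 7.64 FPKM in control and 20.6 ± 3 in 6AN without overlap, and PIR, at a locus shared with FIGF, had a ratio of -0.84.

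Over time, 6 of the 27 targets rose and 5 fell in 6AN, where 11% and 13.2% of all expressed loci did so, and 1 rose and 5 fell in control, where 2.63% and 2.96% did so. SRXN1 rose in 6AN by 0.34 ± 0.10 per 24 hr (limma adjusted p = 0.0329), with a control slope of 0.04 ± 0.08 (limma adjusted p = 0.865). GCLC rose in 6AN by 0.16 ± 0.04 (limma adjusted p = 0.0241), and its control slope of 0.15 ± 0.05 was nearly as large (limma adjusted p = 0.159). SLC7A11 rose in both conditions, by 0.73 ± 0.13 per 24 hr in control and 0.34 ± 0.11 in 6AN (limma adjusted p = 0.0118 and 0.0449). NQO1 fell in control by 0.34 ± 0.08 (limma adjusted p = 0.048), and its slope in 6AN was -0.10 ± 0.10 (limma adjusted p = 0.51). OSGIN1 and PIR passed in neither condition. HMOX1, heme oxygenase 1 and the classical gene repressed by BACH1, was singled out after its values were seen. Its mean level hardly differed, at 32.5 ± 6.22 FPKM in control and 32.4 ± 10.4 in 6AN (SD, n = 12), and it rose over time in 6AN by 0.51 ± 0.11 per 24 hr (limma adjusted p = 0.00971). Its control slope had the same sign, at 0.26 ± 0.07 (limma adjusted p = 0.0798).

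Proteasome subunits, the genes that NRF1 is known to drive, were lower. All 31 were expressed. In 6AN, 23 were lower at all 12 time points, against 20.4% of all expressed loci, and none was higher at all 12, against 13%. For 14 the ranges were apart with 6AN lower, against 10.3% of all expressed loci. The list's median log2 ratio was -0.36. PSMA3, a subunit of the core particle, was at 122 ± 6.12 FPKM in control and 76.8 ± 4.11 in 6AN, and PSMC3, an ATPase of the cap, at 173 ± 15.1 and 109.7 ± 9.95 FPKM. PSMD14, PSMD1, PSMC2 and PSMA4 followed with ratios of -0.60, -0.58, -0.50 and -0.47. NFE2L1 itself had a ratio of -0.04.

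BMAL1 and CLOCK binding was read from the merged peaks and from the sites shared by both factors. Of 439 sites shared in 6AN, 2 were assigned to the 8 genes, and of 147 sites shared in control, none was. The lists differ in length, and the share of all loci with an assigned shared site is not given here. Sites entered the 6AN list through peaks called in 6AN, which by itself favours higher signal in 6AN than in control at them. Within 10 kb of the loci, 32.2% of expressed loci had at least 1 merged peak, and 6 of the 8 genes had one, with KEAP1 and MAFF having none. By library, BMAL1 peaks lay near 3 of the 8 genes in control and 4 in 6AN, where 16% and 21.6% of expressed loci had one, and CLOCK peaks near 0 and 2, where 2.45% and 10.3% had one. With 8 genes and 1 library each, these counts allow no more than a description.

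The first shared site in 6AN lay at the start of BACH1, at chr21:29298371-29299371, with its centre 28 bp before the start. There, tags in 1000 bp, scaled to a library of 10000000 tags, changed little for BMAL1, from 32.2 in control to 34.8 in 6AN. CLOCK went from 31.9 to 42.9 and input from 15.3 to 17.6. Unscaled, BMAL1 had 24 and 27.5 tags and CLOCK had 13 and 19.5, so the differences rest on few reads. The log2 changes (BMAL1 0.11, CLOCK 0.42) were below the medians of all 439 sites (0.46 and 1.10). H3K9ac went from 283.8 to 264.9 and H3K4me3 from 526.0 to 549.0, both among the highest 5% of the sites in 6AN. Unscaled, H3K9ac had 40 and 124.5 tags and H3K4me3 168.5 and 251, so the control value of H3K9ac rests on few reads.

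The other shared site lay in intron 1 of MAFK, at chr7:1537668-1538668, 7436 bp after the start. BMAL1 was at 44.2 in control and 63.3 in 6AN, CLOCK at 34.3 and 60.4, H3K9ac at 262.5 and 348.9, H3K4me3 at 407.4 and 464.8, and input at 12.3 and 18.1. On the log2 scale BMAL1 changed by 0.51, CLOCK by 0.80 and input by 0.52, as much as BMAL1. Unscaled, BMAL1 had 33 and 50 tags, CLOCK 14 and 27.5, and input 41 and 17.5. H3K9ac had 37 and 164 unscaled tags and H3K4me3 130.5 and 212.5, so the control value of H3K9ac rests on few reads. Against all 439 sites, the change at MAFK stood at the 52.2 percentile for BMAL1 and the 29.2 percentile for CLOCK. A BMAL1 peak within this site, at chr7:1538038-1538277, was found in both conditions, whereas the CLOCK peak was found in 6AN only.

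**Figure D5:**
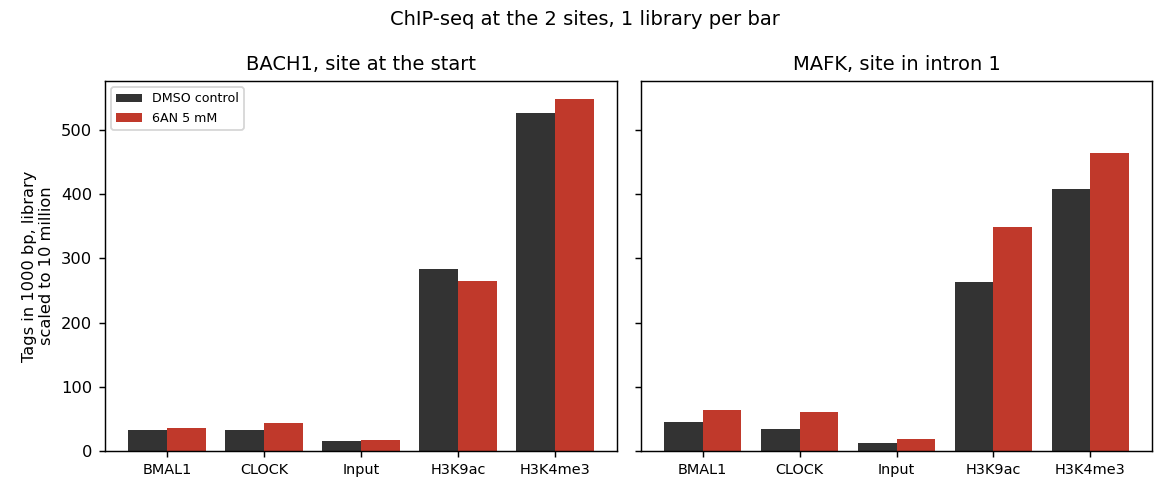
Tags in 1000 bp with each library scaled to 10000000 tags (y axis, from 0) for BMAL1, CLOCK, input, H3K9ac and H3K4me3 (x axis) at the BACH1 site (left) and the MAFK site (right), with 1 library per bar, DMSO control in black and 6AN in red. All bars of MAFK are higher in 6AN, input included, and at BACH1 H3K9ac is lower.

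A further CLOCK peak of MAFK, at chr7:1537214-1537414, was found in 6AN only. The other peaks near the 8 genes were BMAL1 peaks found in 1 condition only. In control they lay at chr2:177263501-177263701, inside NFE2L2, and at chr2:224585492-224585692, 95 bp from CUL3. In 6AN 1 lay at chr17:48048680-48048880, inside NFE2L1, and 3 lay inside MAFG or within 6912 bp of it. The MAFG peak nearest to its start, shown above with its E-box, was 18 bp from the locus. A peak present in 1 list and not in the other was not tested as a difference in binding.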

How the data were processed

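RNA-seq of 24 libraries and ChIP-seq of 10 libraries of U2OS cells were used. Per the labels, reads were processed with TopHat, Bowtie, Cufflinks, Bowtie2 and HOMER on hg38, versions not given in the sources used here. Cufflinks can assign shared reads by estimate. The authors deposited FPKM per locus in 1 table for each condition, normalized separately. They also deposited a gene attribute table, merged ChIP-seq peaks with the HOMER score and a mark for each library holding a peak, and signal at shared sites of 1000 bp, as tags scaled to 10000000 per library. The second, identical attribute table was not used, and no per-sample column was left without a sample (0). Depth is not given with FPKM, and no counts were analysed here. RNA was extracted in triplicate according to the study's methods, and whether extracts were pooled is not stated, so that p-values measure the spread around the fitted curve of single libraries.

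Computed here were log2(FPKM + 1), ratios of 6AN to control by time point, and limma fits (linear trend plus 24 hr cosine and sine, moderated with an intensity trend) within each table for loci of mean FPKM at least 1, with Benjamini-Hochberg adjustment and a threshold of 0.05. Coordinates are 1-based. In simulated data on 13979 loci, the fit called 134 of 200 slopes of 0.48 per 24 hr in control and 135 in 6AN, with 12 and 6 calls among unchanged loci. R 4.3.3 with limma 3.58.1 and Python 3.11.15 with NumPy 2.4.6, pandas 2.3.3, SciPy 1.17.1 and matplotlib 3.10.9 were used.

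Members, lists and tests were chosen with earlier results of these data known. Named were all 8 genes, up to 6 genes of each list (relatives, turnover, targets, proteasome) with the largest mean ratio in size, and the 3 loci most like NFE2L2, KEAP1 and BACH1. Composition ratios within a library, the second-against-first-cycle comparison, the motifs and HMOX1 were added after values were seen. Alternatives were pseudocounts of 0.1 (FPKM) and 5 (signal), no filter, a minimum of 5 FPKM, median centring, leaving out each time point, fits without the harmonic or linear term, Spearman's rho (100000 random orders), an umbrella rank test (1000000 random orders), the median over time points, and peaks within 50 kb. Peaks were counted within 10 kb.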

Additional observations from a re-analysis of the deposited data

How the results depend on the processing

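The 5 genes higher in 6AN at all time points, and the 3 with separate ranges, became 6 and 4 when each library was centred on its median, as NFE2L2 and BACH1 joined them, and ran from 5 to 6 and from 3 to 4 when 1 time point was left out. The pseudocount of 0.1, the median over time points and the filters could not change these counts, so they are no check on them. None of these settings alters which library is higher at a time point, and all 8 genes pass the filters. Leaving out 40 hr put 1 gene (CUL3) lower at all remaining time points, so this count ran from 0 to 1. Mean ratios kept their sign for all 8 genes when a time point was left out, with MAFK between 1.15 and 1.20 and NFE2L1 between -0.05 and -0.02. Centring put NFE2L1 at 0.00 and moved the all-locus share higher at all time points from 13% to 16.3% and lower from 20.4% to 17.8%. The number of genes with a trend in control ran from 0 (without 0 hr) to 2 (without 44 hr, when MAFK fell with a limma adjusted p of 0.0406) and in 6AN from 2 to 4. BACH1 and MAFG kept their 6AN trend in all 12 such fits. MAFK lost its call in 6AN with no filter (limma adjusted p = 0.109) and with centring (0.0644), while NFE2L2 gained one with centring (0.0353). By Spearman's rho with random orders the same 4 trends were called, with adjusted p-values of 0.0032 and 0.0377 for MAFG in 6AN and control, 0.0243 for BACH1 and 0.0256 for MAFK. Over all loci in control, 781 trends became 497 with no filter, and 465, 477, 512 and 483 without 0, 12, 32 and 44 hr. In 6AN, 3391 became 2222 without 0 hr. The shares of all loci with a trend given as background thus rest in part on these libraries. The 1 rhythmic locus in control became 0 without the linear trend and by the rank test, and no setting called a rhythm among the 8 genes. Merged peaks near the 8 genes went from 9 within 10 kb to 14 within 50 kb, and still belonged to 6 genes. No fit paired the libraries of the same time point, since tests were kept within each table. With 1 library per time point, the SE of a member's slope was 0.03 to 0.09 per 24 hr, and the ChIP-seq counts of 13 to 50 tags for BMAL1 and CLOCK limit those changes.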

Other observations

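Of the 30 NRF2 targets, 3 aldo-keto reductases were under 1 FPKM and stood outside the comparison. AKR1C1 was at 0.0632 ± 0.0968 FPKM in control and 0.622 ± 0.292 in 6AN (SD, n = 12), AKR1C2 at 0.0386 ± 0.0681 and 0.147 ± 0.148, and AKR1B10 at 0.47 ± 0.243 and 0.476 ± 0.266. AKR1C1 and AKR1C2 are near-identical copies whose reads the counting may have divided.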
